A study of Mus musculus with 12 samples.

Results

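The teneurins, the latrophilins and the Flrt proteins are cell-surface adhesion molecules that bind one another across contacts between neurons. They were followed here as 10 genes chosen by name, which are Tenm1 to Tenm4, Lphn1 to Lphn3 and Flrt1 to Flrt3. All 10 were found by symbol among the 23079 genes of the count table, and all 10 were among the 14732 genes that passed the filter on low counts and were tested. RNA sequencing was done on genetically labelled neurons of the pontine nucleus of CD-1 mouse embryos at E18.5, with 2000 cells sorted by FACS per replicate and RNA of 1000 cell equivalents amplified before library preparation. The 12 libraries fall into 3 labelled groups. Hoxa5tdTomato (n = 3) has columns that name Hoxa5 and cre. Math1Hoxa5-IRES-GFP (n = 3) has columns that name Math1 with a Cag and lsl Hoxa5 allele. Math1tdTomato (n = 6) is the common reference of the series, and its columns name Math1 with creErt2 in 3 libraries and Math1 with tdT in the other 3. Math1, also called Atoh1, marks precursors in the rhombic lip that give rise to pontine neurons, and Hoxa5 encodes a homeodomain transcription factor. A tdTomato or GFP label marks the cells in which a driver acted, and the labels give no induction time for the creErt2 allele and no number of animals behind a replicate. The p values therefore measure the spread between these libraries, which may be technical, and in bulk RNA fewer cells of a type and less RNA per cell cannot be told apart.

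Teneurins are large single-pass proteins that sit on axons and dendrites and act as ligands. Latrophilins are adhesion G protein-coupled receptors, and the teneurins are their ligands in trans. The Flrt proteins, which carry leucine-rich repeats, bind latrophilins at the same contacts and also bind the repulsive guidance receptors of the Unc5 family and the fibroblast growth factor receptors. In the brain these molecules are known for matching axons with targets, for repulsion between axons and territories, and for building excitatory synapses. The pontine nucleus relays cortical input to the cerebellum, and its neurons reach their position by tangential migration.

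The promoter windows of the 3 members that differed from the references in both Hoxa5 groups are shown here, because the study asks about genes downstream of a homeodomain protein. They are RefSeq entries on build GRCm38.p6 and run from 250 bases before to 50 bases after an annotated start. Capitals mark TAAT or its reverse complement ATTA, the core letters of many homeodomain sites. They lie at chrX:43274735-43275034 on the minus strand for Tenm1, at chr8:48674641-48674940 on the minus strand for Tenm3, and at chr5:81020321-81020620 on the plus strand for the first of 3 entries of Lphn3, which the reference calls Adgrl3.
Tenm1: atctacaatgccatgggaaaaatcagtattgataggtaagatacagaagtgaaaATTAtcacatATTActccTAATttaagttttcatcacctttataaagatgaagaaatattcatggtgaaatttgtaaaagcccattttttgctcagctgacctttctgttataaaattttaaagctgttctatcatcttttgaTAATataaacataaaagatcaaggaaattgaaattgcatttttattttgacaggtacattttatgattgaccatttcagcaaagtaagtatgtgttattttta
Tenm3: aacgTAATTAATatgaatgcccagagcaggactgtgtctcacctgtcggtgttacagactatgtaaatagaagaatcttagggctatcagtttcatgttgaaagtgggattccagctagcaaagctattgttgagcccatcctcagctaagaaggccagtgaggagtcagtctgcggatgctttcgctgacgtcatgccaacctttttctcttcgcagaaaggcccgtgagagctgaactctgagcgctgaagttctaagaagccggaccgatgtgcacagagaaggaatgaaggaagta
Lphn3: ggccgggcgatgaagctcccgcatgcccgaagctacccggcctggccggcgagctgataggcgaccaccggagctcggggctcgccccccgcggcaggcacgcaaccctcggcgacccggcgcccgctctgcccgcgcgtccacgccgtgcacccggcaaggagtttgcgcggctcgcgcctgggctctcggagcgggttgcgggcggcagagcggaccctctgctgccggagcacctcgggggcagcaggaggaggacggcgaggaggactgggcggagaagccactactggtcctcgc
Counting both strands and overlapping matches, the Tenm1 window held 4 matches, the Tenm3 window 3 and this Lphn3 window 0, while the third Lphn3 entry held 3. The windows differ in base composition, with a GC content of 27% for Tenm1, 47.3% for Tenm3 and 75.3% for Lphn3, against a median of 52.7% over the 32851 windows of the table. TAAT was in 58.0% of those windows, and 11.6% held at least 4 matches. Of the other members, Tenm2 held 2 matches, Lphn2 4, Flrt3 1, Lphn1 and Flrt2 0, and the 2 entries of Tenm4 held 4 and 0; Flrt1 had no entry. The longer motif TGATTNAT, which Hox proteins bind together with Pbx, was searched on both strands. It was in 3.22% of all windows and, among the windows of the members, in that of Lphn2 with 1 match. The printed Tenm1, Tenm3 and Lphn3 windows lie within the annotated spans of these genes, chrX:42527866-43429168, chr8:48225665-49522824 and chr5:81019085-81827825. On the minus strand a span begins at its higher coordinate, so the Tenm1 and Tenm3 windows are at starts deep inside their genes. The Lphn3 window lies near the beginning of its span. Starts other than those of the entries were not examined. A match is a description of letters and not of binding.

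Hoxa5 itself checks the labels. It had 127, 222 and 119 CPM (read counts scaled to library size by TMM) in Hoxa5tdTomato libraries 1 to 3 and 9.73, 16.8 and 82.0 CPM in the libraries labelled Math1Hoxa5-IRES-GFP, against 8.79, 8.62 and 23.1 CPM in the creErt2 references and 8.06, 4.35 and 32.2 CPM in the tdT references. All Hoxa5tdTomato libraries lie above the references, while libraries 1 and 2 labelled Math1Hoxa5-IRES-GFP lie within their range. Whether the counts take in transcripts of the driven Hoxa5 allele is not given in the labels or the table, so these low values do not show that the allele was inactive. Hoxa5 rose in Hoxa5tdTomato by a log2 fold change of 3.46 ± 0.591 (SE; edgeR adjusted p = 0.00712), and the change of 1.35 ± 0.587 in Math1Hoxa5-IRES-GFP did not pass (edgeR adjusted p = 0.255). Against the creErt2 references the change in Hoxa5tdTomato was 3.53 ± 0.801 and did not pass (edgeR adjusted p = 0.0698). Every direction given for Math1Hoxa5-IRES-GFP rests on its label. Libraries of Hoxa5tdTomato and of the creErt2 references held 9973484 to 13302076 counts, and those of the other 2 kinds held 22355961 to 29820776, so that depth and kind of reference cannot be told apart. Math1Hoxa5-IRES-GFP library 3 stands apart from its group: it had the fewest genes with a count, 13074, and the Pearson correlations across genes between the libraries of its group were 0.898 to 0.953, against 0.962 to 0.974 within the other groups of columns. Hoxa5tdTomato libraries also had higher summed levels of endothelial, pericyte and meningeal markers than any reference. The summed level of 14 endothelial markers was 114 to 201 CPM in Hoxa5tdTomato, with each of the 14 counted, and 1.60 to 29.0 CPM in the references, where Ly6c1 was at 0 in the tdT references and Tie1 at 0 in the creErt2 references. The 10 pericyte markers summed to 116 to 237 CPM in Hoxa5tdTomato and to 2.07 to 27.9 CPM in the references, where Anpep was at 0. The 10 neuron markers, which check the labelled tissue, summed to 6570 to 6960 CPM in Hoxa5tdTomato and to 8540 to 10700 CPM in the references. The 8 meningeal markers summed to 39 to 79.3 CPM in Hoxa5tdTomato, with Dcn and Slc6a13 at 0, and to 1.46 to 13.9 CPM in the references, with Slc6a13 at 0. The 8 microglial markers summed to 55.9, 7.81 and 11.7 CPM in Hoxa5tdTomato libraries 1 to 3 and to 0.321 to 13 CPM in the references, so that library 1 stood out and the others overlapped. Against all references the median log2 fold change of the tested markers in Hoxa5tdTomato was 3.36 for endothelium, 3.46 for pericytes, 3.28 for meninges and 1.84 for microglia. In edgeR, where 1.73% of all genes tested were called, 2 of 13 endothelial and 3 of 8 pericyte genes rose, 0 of 4 meningeal and 0 of 7 microglial genes passed, and 1 of 10 neuron genes fell. At an unadjusted p under 0.05 edgeR counted 11 endothelial, 7 pericyte, 3 meningeal, 0 microglial and 2 neuron genes, and 2148 of all 14732 genes tested. DESeq2 called 4 endothelial, 2 pericyte, 0 meningeal, 0 microglial and 1 neuron gene, and 622 of all genes. Against the creErt2 references edgeR called 0 endothelial and 0 pericyte genes, with 5 of each list at an unadjusted p under 0.05, and 1 neuron gene. Of all 14732 genes it called 0.557% against these references, with 1312 at an unadjusted p under 0.05. DESeq2 called 2 endothelial genes, 1 pericyte gene and 1 neuron gene there. The part of these markers in the results below was not tested. Math1Hoxa5-IRES-GFP libraries had 0.803 to 46.5 CPM of the endothelial list, with Egfl7 at 0, and 5.42 to 65.7 CPM of the pericyte list. They had 1.68 to 36 CPM of the meningeal list, 0 to 4.99 CPM of the microglial list and 8660 to 11400 CPM of the neuron list. Library 2 held the highest endothelial, pericyte and meningeal sums of this group, each above every reference. The 6 GABAergic and glycinergic markers had a median log2 fold change of −2.41 there against all references. In edgeR 0 of the 6 passed and 3 had an unadjusted p under 0.05, as did 2456 of all 14732 genes tested. DESeq2 called 2 of the 6 lower, Gad1 and Pax2, and 831 of all genes.

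Lphn2 was the most abundant member. On the scale of CPM per kilobase of gene length, which allows genes to be set side by side, the mean over the 12 libraries was 188 for Lphn2, 87.1 for Lphn1 and 58.3 for Lphn3. Tenm2 followed at 43.3, then Flrt2 at 16.3, Tenm3 at 13.7, Tenm1 at 10.8, Flrt3 at 7.11, Flrt1 at 1.36 and Tenm4 at 1.20. Lphn2 lay above 99.5% of all 23079 genes and Tenm4 above 48.6%. Not every neighbour in this order was separated. Lphn3 was above Tenm2 in 6 of 12 libraries, all of them references, Tenm1 was above Flrt3 in 7 of 12, and Flrt1 was above Tenm4 in 5 of 12. Lphn2 was above Lphn1, Tenm2 above Flrt2, and Flrt3 above Flrt1 in all 12 libraries. Lphn1 was above Lphn3 in 11 of 12, and Flrt2 above Tenm3 and Tenm3 above Tenm1 in 10 of 12.

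**Figure D1:**
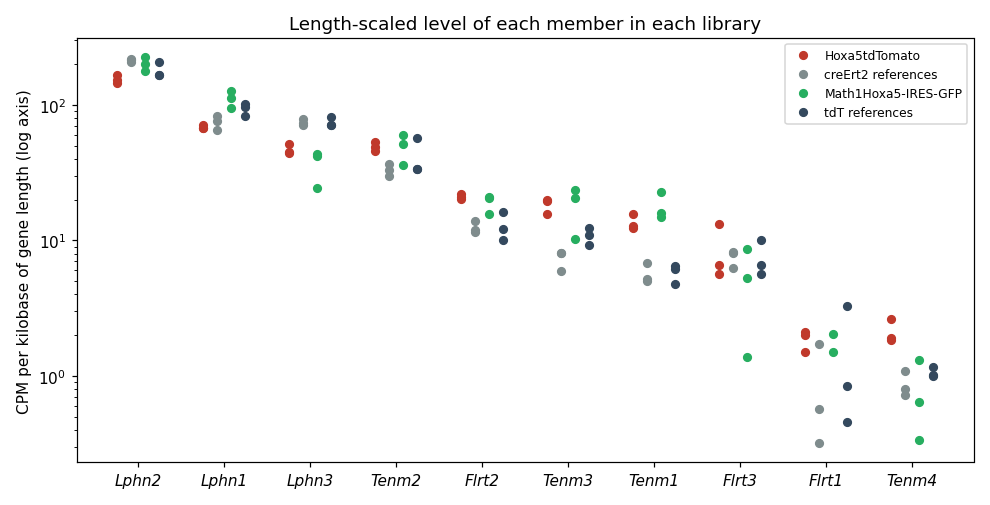
Length-scaled level of each member, in CPM per kilobase on a log axis, with 1 point per library and the 4 kinds of library side by side. Lphn2, with a mean of 188, stands above the rest, Flrt1 and Tenm4 lie lowest at 1.36 and 1.20, and the 1 library with a Flrt1 count of 0 (Math1Hoxa5-IRES-GFP library 3) has no point.

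Against all 6 Math1tdTomato libraries, 4 of the 10 members passed in Hoxa5tdTomato: Tenm1, Tenm3 and Flrt2 were higher and Lphn3 was lower. The test was the quasi-likelihood F test of edgeR with Benjamini-Hochberg adjustment over 14732 genes, and 1.73% of these genes passed (0.842% higher and 0.889% lower). The groups did not overlap for 5 members, Tenm1, Tenm3, Tenm4 and Flrt2 above and Lphn3 below, against 14.1% of all genes tested (7.15% above and 6.93% below). The median log2 fold change of the 10 members was 0.52, and that of all genes tested was 0.00. In Math1Hoxa5-IRES-GFP against the same 6 references, 3 members passed, Tenm1 and Tenm3 higher and Lphn3 lower, against 1.84% of genes tested (1.3% higher and 0.543% lower). The groups did not overlap for 2 members, Tenm1 above and Lphn3 below, against 6.37% of genes tested (3.11% above and 3.27% below). The median of the members was 0.21 and that of all genes 0.00. Both comparisons use the same 6 references, so that the directions they have in common are not independent observations. The shares of all genes depend on single libraries: with 1 library left out, edgeR called 35 to 728 genes in Hoxa5tdTomato and 190 to 575 in Math1Hoxa5-IRES-GFP, against 255 and 271 with all libraries.

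**Figure D2:**
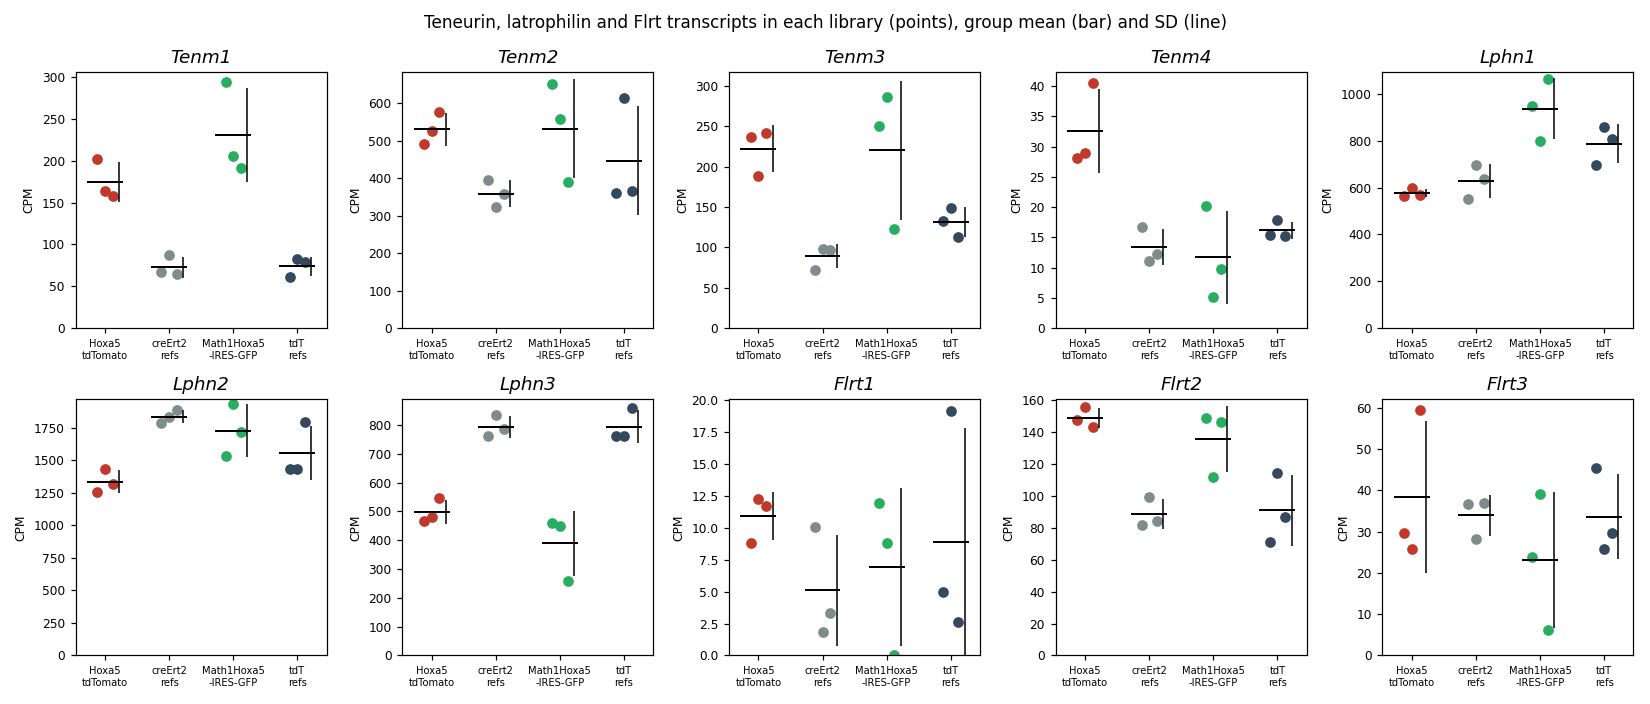
CPM of each member in every library (points), with the mean of each kind of library (bar) and its SD (line), n = 3 for each kind. Tenm1 lies at 158 to 202 CPM in Hoxa5tdTomato, at 192 to 294 CPM in Math1Hoxa5-IRES-GFP and at 61.1 to 87.1 CPM in both kinds of reference, while Lphn3 lies lower in both Hoxa5 groups than in either kind of reference.

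Tenm1, an X-linked teneurin expressed in subsets of neurons, had the smallest adjusted p of the members in both comparisons. It had 202, 164 and 158 CPM in Hoxa5tdTomato and 294, 206 and 192 CPM in Math1Hoxa5-IRES-GFP, against 67.1, 87.1 and 64.5 CPM in the creErt2 references and 61.1, 82.3 and 79.0 CPM in the tdT references. All 6 libraries of the Hoxa5 groups thus lie above all 6 references. Tenm1 rose in Hoxa5tdTomato by a log2 fold change of 1.25 ± 0.174 (SE), 2.38-fold, with an edgeR adjusted p of 0.00173. In Math1Hoxa5-IRES-GFP it rose by 1.65 ± 0.173 on the log2 scale, 3.14-fold, with an edgeR adjusted p of 4.31e-05. Against the references of one kind the changes were 1.26 ± 0.206 in Hoxa5tdTomato against the creErt2 references (edgeR adjusted p = 0.0107) and 1.64 ± 0.207 in Math1Hoxa5-IRES-GFP against the tdT references (edgeR adjusted p = 0.000956). Tenm1 passed in both comparisons with each of the 12 libraries left out in turn, the edgeR adjusted p reaching at most 0.0246. Against references of one kind the call in Hoxa5tdTomato was lost without Hoxa5tdTomato library 1 (edgeR adjusted p = 0.0875), creErt2 reference 1 (0.0858) or creErt2 reference 3 (0.105). Its exons overlap those of Sh2d1a on the opposite strand by 1465 bases, and whether the counts used strand is not stated; Sh2d1a had a count of 0 in 11 libraries and of 3 in the other. Xist, the transcript of the inactive X chromosome, was at 4.36 CPM in Hoxa5tdTomato library 1, 10.9 in Math1Hoxa5-IRES-GFP library 3 and 9.56 in tdT reference 2, and at 1570 to 5440 CPM elsewhere. Tenm1 in these 3 libraries was 202, 192 and 82.3 CPM. They are single libraries of their groups, and the part of the Xist level in the Tenm1 values was not tested.

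Tenm3, a teneurin known for topographic wiring in the visual system and the hippocampus, rose in both comparisons. It had 237, 189 and 242 CPM in Hoxa5tdTomato and 251, 287 and 123 CPM in Math1Hoxa5-IRES-GFP, against 72.1, 98.2 and 97.3 CPM in the creErt2 references and 133, 149 and 112 CPM in the tdT references. The Hoxa5tdTomato libraries all lie above the references, whereas Math1Hoxa5-IRES-GFP library 3 lies among them. The log2 fold change was 1.01 ± 0.238 in Hoxa5tdTomato (edgeR adjusted p = 0.0393) and 1.00 ± 0.238 in Math1Hoxa5-IRES-GFP (edgeR adjusted p = 0.0389). In Hoxa5tdTomato against the creErt2 references the change was 1.32 ± 0.254 (edgeR adjusted p = 0.0302), a call lost without any 1 library of either group (0.0783 to 0.181). In Math1Hoxa5-IRES-GFP against the tdT references it was 0.74 ± 0.250, which did not pass (edgeR adjusted p = 0.202); without library 3 of that group it was 1.03 and passed (0.0029). The pooled call in Hoxa5tdTomato was lost without any 1 library of Hoxa5tdTomato, any 1 creErt2 reference or tdT reference 3, with edgeR adjusted p of 0.061 to 0.209. The pooled call in Math1Hoxa5-IRES-GFP was lost without any 1 library of Hoxa5tdTomato, any 1 creErt2 reference, tdT reference 3 or Math1Hoxa5-IRES-GFP library 1 or 2, with edgeR adjusted p of 0.0556 to 0.127, and when counts were scaled by library size alone (0.0716). The creErt2 and tdT references did not overlap for Tenm3, and the difference between them, −0.56 ± 0.250 on the log2 scale, did not pass (edgeR adjusted p = 0.352).

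Tenm2 was the most abundant teneurin and is also known as Lasso, a ligand of Lphn1. It had 490, 525 and 577 CPM in Hoxa5tdTomato and 651, 558 and 389 CPM in Math1Hoxa5-IRES-GFP, against 394, 323 and 359 CPM in the creErt2 references and 361, 615 and 365 CPM in the tdT references. tdT reference 2 lies far above the other 5 references. It is also above all Hoxa5tdTomato libraries and inside the range of Math1Hoxa5-IRES-GFP. The log2 fold changes of 0.40 ± 0.192 in Hoxa5tdTomato and 0.40 ± 0.192 in Math1Hoxa5-IRES-GFP did not pass (edgeR adjusted p = 0.358 and 0.305). Against the creErt2 references the Hoxa5tdTomato libraries did not overlap, and the change of 0.57 ± 0.209 did not pass (edgeR adjusted p = 0.369).

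Tenm4, known in mice for the myelination of thin axons, was the least abundant teneurin. It had 28.1, 29.0 and 40.5 CPM in Hoxa5tdTomato and 20.1, 5.17 and 9.83 CPM in Math1Hoxa5-IRES-GFP, against 16.8, 11.1 and 12.2 CPM in the creErt2 references and 15.4, 17.8 and 15.2 CPM in the tdT references. The Hoxa5tdTomato libraries lie above all others, and the Math1Hoxa5-IRES-GFP libraries lie on both sides of the references. The log2 fold change in Hoxa5tdTomato was 1.14 ± 0.364 and did not pass (edgeR adjusted p = 0.129), while DESeq2 gave 1.17 with an adjusted p of 0.0493. In Math1Hoxa5-IRES-GFP it was −0.34 ± 0.382 (edgeR adjusted p = 0.702).

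The summed level of the 4 teneurins on the length scale was 83.3 ± 4.79 CPM per kilobase in Hoxa5tdTomato, 86.3 ± 22.2 in Math1Hoxa5-IRES-GFP and 53.2 ± 11.8 in the references (SD, n = 3, 3 and 6). Hoxa5tdTomato libraries ranged from 79.0 to 88.5 and did not overlap the references at 45.6 to 76.9, and Math1Hoxa5-IRES-GFP libraries ranged from 61.9 to 105. Tenm2 made up 59.1% of this sum in Hoxa5tdTomato, 57.3% in Math1Hoxa5-IRES-GFP and 69.9% in the references. The share of Tenm1 was 16.4% in Hoxa5tdTomato, 21.2% in Math1Hoxa5-IRES-GFP and 11.1% in the references. These sums and shares are descriptions and were not tested.

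Lphn3, a receptor for Flrt3 and the teneurins whose human gene has been linked to attention deficit disorder, fell in both comparisons. It had 467, 480 and 547 CPM in Hoxa5tdTomato and 460, 449 and 258 CPM in Math1Hoxa5-IRES-GFP, against 760, 836 and 787 CPM in the creErt2 references and 761, 761 and 860 CPM in the tdT references. All 6 libraries of the Hoxa5 groups lie below all 6 references, and both kinds of reference are at one level, with means of 794.3 and 794.0 CPM. The log2 fold change was −0.67 ± 0.162 in Hoxa5tdTomato (edgeR adjusted p = 0.0452) and −1.03 ± 0.165 in Math1Hoxa5-IRES-GFP (edgeR adjusted p = 0.00282). Against references of one kind it was −0.67 ± 0.176 in Hoxa5tdTomato, which did not pass (edgeR adjusted p = 0.136, or 0.00159 without Math1Hoxa5-IRES-GFP library 3 in the fit), and −1.03 ± 0.177 in Math1Hoxa5-IRES-GFP, which did (edgeR adjusted p = 0.00922). The pooled call in Hoxa5tdTomato was lost without any 1 library of Hoxa5tdTomato or any 1 reference, with edgeR adjusted p of 0.0566 to 0.257, and when counts were scaled by library size alone (0.162) or by DESeq2 size factors in the edgeR fit (0.0531). In Math1Hoxa5-IRES-GFP the pooled call was kept with each of the 12 libraries left out (edgeR adjusted p at most 0.00823), and without library 3, which had the lowest level, the log2 fold change was −0.80. Against the tdT references that call was lost without tdT reference 3 (edgeR adjusted p = 0.0551). The antisense transcript Gm16054 overlaps exons of Lphn3 by 1582 bases, and without strand its reads cannot be told apart from those of Lphn3.

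Lphn1, the receptor through which the spider toxin alpha-latrotoxin acts, did not pass against the references in either group. It had 564, 597 and 568 CPM in Hoxa5tdTomato and 947, 800 and 1062 CPM in Math1Hoxa5-IRES-GFP, against 552, 697 and 637 CPM in the creErt2 references and 697, 858 and 806 CPM in the tdT references. The Hoxa5tdTomato libraries lie within the range of the creErt2 references, and 2 of the Math1Hoxa5-IRES-GFP libraries lie above all references. The log2 fold change was −0.30 ± 0.146 in Hoxa5tdTomato (edgeR adjusted p = 0.368) and 0.40 ± 0.142 in Math1Hoxa5-IRES-GFP (edgeR adjusted p = 0.161). The creErt2 references all lie below the tdT references, by −0.32 ± 0.135 on the log2 scale, which did not pass (edgeR adjusted p = 0.313). Exons of Gm10644, a gene on the opposite strand, overlap those of Lphn1 by 1107 bases. Without strand its reads there cannot be told apart from those of Lphn1.

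Lphn2, a latrophilin that acts with Tenm3 in hippocampal target choice, had 1259, 1435 and 1316 CPM in Hoxa5tdTomato and 1531, 1936 and 1714 CPM in Math1Hoxa5-IRES-GFP. The creErt2 references had 1785, 1834 and 1884 CPM and the tdT references 1433, 1435 and 1795 CPM. The Hoxa5tdTomato libraries lie below the creErt2 references and reach into the range of the tdT references. The log2 fold change in Hoxa5tdTomato was −0.34 ± 0.129 against all references (edgeR adjusted p = 0.205) and −0.46 ± 0.121 against the creErt2 references (edgeR adjusted p = 0.140), and neither passed; without Math1Hoxa5-IRES-GFP library 3 in the fit, which takes no part in that contrast, the second passed (0.031). In Math1Hoxa5-IRES-GFP the change was 0.03 ± 0.127 (edgeR adjusted p = 0.938), and its sign depended on the scaling.

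As a family the latrophilins summed to 271 ± 12.8 CPM per kilobase in Hoxa5tdTomato, 349 ± 14.4 in Math1Hoxa5-IRES-GFP and 356 ± 24.4 in the references (SD, n = 3, 3 and 6). The range of 258 to 283 in Hoxa5tdTomato lies below that of 322 to 386 in the references. Lphn3 made up 17.3% of the sum in Hoxa5tdTomato, 10.5% in Math1Hoxa5-IRES-GFP and 21.0% in the references, and the ranges of 16.0% to 18.9%, 6.94% to 13% and 20.1% to 22.3% did not overlap. Tenm1 per Lphn3 on the length scale, a ratio chosen after the values of both genes were seen, was 0.239 to 0.358 in Hoxa5tdTomato, 0.38 to 0.616 in Math1Hoxa5-IRES-GFP and 0.0665 to 0.0896 in the references. These values were not tested.

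Flrt2, which repels migrating neurons that carry Unc5 receptors, had 148, 156 and 143 CPM in Hoxa5tdTomato and 149, 112 and 146 CPM in Math1Hoxa5-IRES-GFP, against 81.4, 99.2 and 84.5 CPM in the creErt2 references and 71.2, 115 and 86.6 CPM in the tdT references. The Hoxa5tdTomato libraries lie above every reference, and Math1Hoxa5-IRES-GFP library 2 lies just under tdT reference 2. Flrt2 rose in Hoxa5tdTomato by 0.73 ± 0.170 on the log2 scale (edgeR adjusted p = 0.0366). In Math1Hoxa5-IRES-GFP the change of 0.60 ± 0.171 did not pass (edgeR adjusted p = 0.0811), while it passed with DESeq2 (0.0236) and without tdT reference 2 (edgeR adjusted p = 0.0458). Against references of one kind it was 0.75 ± 0.196 in Hoxa5tdTomato (edgeR adjusted p = 0.136) and 0.58 ± 0.195 in Math1Hoxa5-IRES-GFP (edgeR adjusted p = 0.203), and neither passed, although the first did without Math1Hoxa5-IRES-GFP library 3 in the fit (0.0351). The pooled call in Hoxa5tdTomato was lost without any 1 library of Hoxa5tdTomato, any 1 creErt2 reference, tdT reference 1 or tdT reference 3, with edgeR adjusted p of 0.0504 to 0.212.

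Flrt3, a ligand of Lphn3 at excitatory synapses, had 29.7, 25.8 and 59.5 CPM in Hoxa5tdTomato and 23.9, 39.1 and 6.27 CPM in Math1Hoxa5-IRES-GFP, against 36.6, 28.2 and 37.0 CPM in the creErt2 references and 45.3, 25.8 and 29.8 CPM in the tdT references. Both Hoxa5 groups overlap the references. The log2 fold changes were 0.18 ± 0.414 in Hoxa5tdTomato (edgeR adjusted p = 0.905) and −0.55 ± 0.426 in Math1Hoxa5-IRES-GFP (edgeR adjusted p = 0.550), and the first turned to −0.29 without Hoxa5tdTomato library 3. Flrt1, which binds fibroblast growth factor receptors, had the widest standard errors of the members in both Hoxa5 groups against Math1tdTomato. It had 8.81, 12.3 and 11.7 CPM in Hoxa5tdTomato and 11.9, 8.77 and 0 CPM in Math1Hoxa5-IRES-GFP, against 10.04, 1.87 and 3.35 CPM in the creErt2 references and 4.96, 19.1 and 2.66 CPM in the tdT references. The references alone span a wider range than the Hoxa5tdTomato libraries. The count of 0 in Math1Hoxa5-IRES-GFP library 3 allows up to 0.150 CPM, the level of 3 counts, and such limits cover counting error only. The log2 fold changes of 0.64 ± 0.937 in Hoxa5tdTomato and −0.02 ± 0.956 in Math1Hoxa5-IRES-GFP did not pass (edgeR adjusted p = 0.836 and 0.993). Flrt1 lies inside Macrod1 and Flrt3 inside Macrod2, each on the opposite strand with no shared exon bases. Opposite-strand exon overlaps were also listed for Tenm4 (988 bases with C230038L03Rik), Lphn2 (202 with Gm43573) and Tenm3 (114 with Gm19744).

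**Figure D3:**
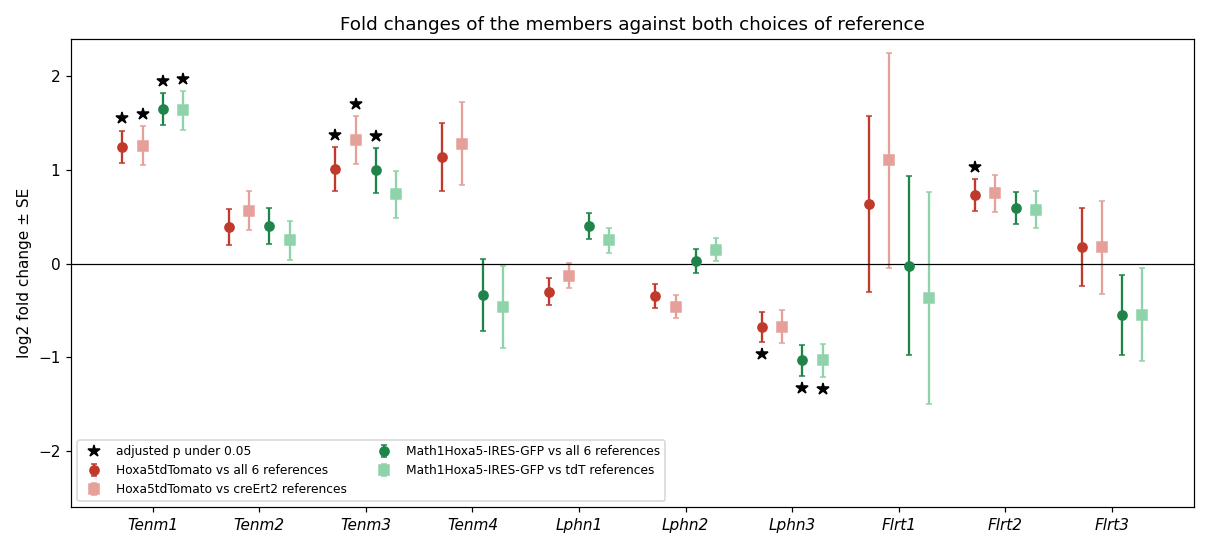
Log2 fold change ± SE of each member in Hoxa5tdTomato (red) and Math1Hoxa5-IRES-GFP (green), against all 6 references (circles) and against the references of one kind (squares); stars mark an edgeR adjusted p under 0.05. Tenm1 lies above 0 with a star in all 4, Lphn3 lies below 0 in all 4 with a star in 3, and Flrt1 has the widest errors.

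Against references of one kind, 2 members passed in Hoxa5tdTomato (Tenm1 and Tenm3), where 0.557% of all genes tested did (0.292% higher and 0.265% lower), and 2 passed in Math1Hoxa5-IRES-GFP (Tenm1 and Lphn3), where 0.862% did (0.536% higher and 0.326% lower). The groups did not overlap for 7 members in Hoxa5tdTomato against the creErt2 references, Tenm1 to Tenm4 and Flrt2 above and Lphn2 and Lphn3 below, and 25.3% of all genes tested had groups that did not overlap there (12.7% above and 12.7% below). In Math1Hoxa5-IRES-GFP against the tdT references the groups did not overlap for Tenm1 and Lphn3, and for 12.5% of all genes tested (6.01% above and 6.46% below). The 2 kinds of reference were also set against each other, creErt2 against tdT. None of the 10 members passed in edgeR and none in DESeq2, and 1.34% of all genes tested passed in edgeR (0.713% higher and 0.624% lower). At an unadjusted edgeR p under 0.05 there were 2 members (Tenm3 and Lphn1) and 1894 of all 14732 genes tested. The kinds did not overlap for Tenm3 and Lphn1, both lower in the creErt2 references, against 24.6% of genes tested (12.6% above and 12% below). The name of a reference column does not say which Hoxa5 group it belongs with, and the pairing of kinds rests on the words in the names.

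Set directly against each other, Hoxa5tdTomato and Math1Hoxa5-IRES-GFP differed in 1 member past the threshold, where 3.35% of all genes tested passed (0.916% higher and 2.43% lower). Lphn1 was lower in Hoxa5tdTomato by a log2 fold change of −0.70 ± 0.167 (edgeR adjusted p = 0.0386), with all 3 Hoxa5tdTomato libraries below all 3 Math1Hoxa5-IRES-GFP libraries. The call was lost without any 1 Hoxa5tdTomato library (edgeR adjusted p = 0.122 to 0.147), without Math1Hoxa5-IRES-GFP library 3 (0.0748), without creErt2 reference 2 (0.0504) and when counts were scaled by library size alone (0.144). Over all genes the direct comparison in edgeR called 0, 1 and 1 without Hoxa5tdTomato library 1, 2 or 3 (2577, 2564 and 2725 at an unadjusted p under 0.05) and 1157 without Math1Hoxa5-IRES-GFP library 1, against 493 with all libraries. In the fit with both kinds of reference apart, which called 8.08% of all genes (2.41% higher and 5.67% lower), it passed at 0.00644. The groups did not overlap for 4 members, Lphn1 and Lphn2 below and Tenm4 and Lphn3 above, against 27.7% of all genes tested (14.7% above and 12.9% below). Tenm4 was higher in Hoxa5tdTomato by 1.48 ± 0.443 and missed the threshold (edgeR adjusted p = 0.0678), although it passed with DESeq2 (0.0141) and without Math1Hoxa5-IRES-GFP library 1 (edgeR adjusted p = 0.0155). Lphn2 at −0.37 ± 0.147 (edgeR adjusted p = 0.148), Lphn3 at 0.36 ± 0.182 (0.265) and Tenm1 at −0.40 ± 0.208 (0.270) did not pass. The 2 groups also differ in depth and in the kind of column, and these cannot be told apart from the label.

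Whether a member changed more in one Hoxa5 group than in the other was tested as the change in Hoxa5tdTomato against the creErt2 references minus the change in Math1Hoxa5-IRES-GFP against the tdT references. No member passed in edgeR or in DESeq2; 0 of 14732 genes passed in edgeR, 54 passed in DESeq2, and 1181 genes had an unadjusted edgeR p under 0.05. The members with an unadjusted p under 0.05 were Tenm4, at 1.75 ± 0.623 on the log2 scale (edgeR adjusted p = 0.556), and Lphn2, at −0.61 ± 0.171 (edgeR adjusted p = 0.499). For Tenm1 the difference was −0.38 ± 0.287, for Tenm3 0.58 ± 0.353 and for Lphn3 0.36 ± 0.248 (edgeR adjusted p = 0.779, 0.723 and 0.751). These p values do not show that the changes were alike.

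**Figure D4:**
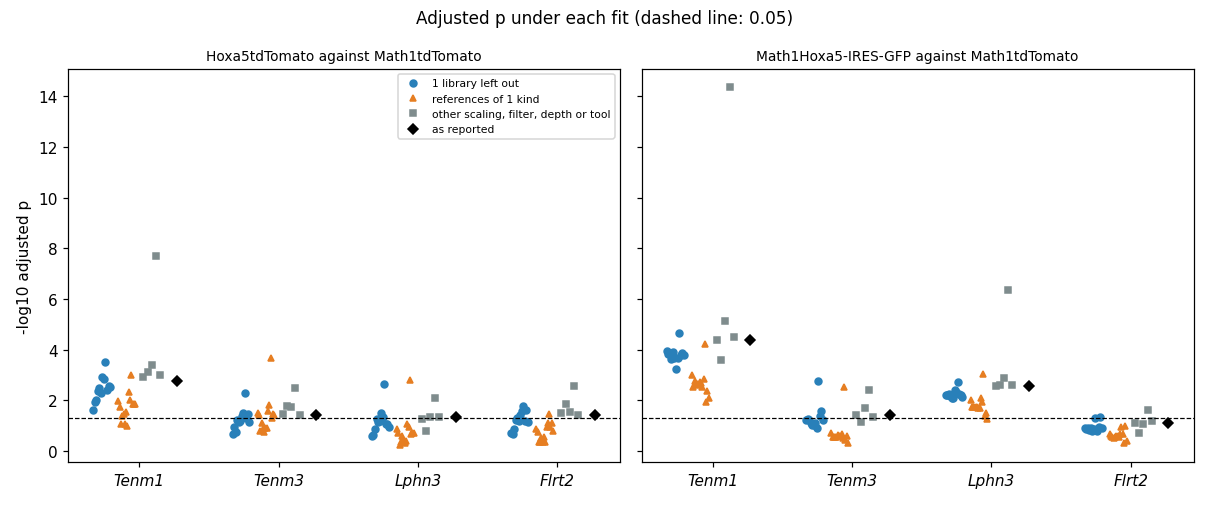
Adjusted p, as −log10, of Tenm1, Tenm3, Lphn3 and Flrt2 in both comparisons with the references under every fit that was run, with the threshold of 0.05 dashed. For Tenm1 all fits in Math1Hoxa5-IRES-GFP lie above the line and 3 in Hoxa5tdTomato lie under it; for Lphn3 in Math1Hoxa5-IRES-GFP 1 lies under it, while Tenm3, Lphn3 and Flrt2 in Hoxa5tdTomato lie on both sides.

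The other genes of the pathway were followed as lists of extracellular and intracellular partners. Of 13 extracellular partners, among them Unc5a to Unc5d, Fgfr1 to Fgfr3, Robo1 and Dag1, 0 passed in Hoxa5tdTomato against all references in edgeR and 0 in DESeq2. At an unadjusted edgeR p under 0.05 there were 4 of them and 2148 of all 14732 genes tested. In Math1Hoxa5-IRES-GFP 2 of the 13 rose against all references in edgeR, where 1.3% of all genes tested were called higher. Fgfr2, a receptor for fibroblast growth factors, was at 140 ± 21.4 CPM in Math1Hoxa5-IRES-GFP and 44.1 ± 12.8 CPM in Math1tdTomato (SD, n = 3 and 6), a log2 fold change of 1.66 ± 0.226 (edgeR adjusted p = 0.000644), and its level in Hoxa5tdTomato was 65.8 ± 4.86 CPM. Fgfr1, its relative, was at 420 ± 61.9 CPM in Math1Hoxa5-IRES-GFP and 269 ± 41.5 CPM in Math1tdTomato, a change of 0.64 ± 0.148 (edgeR adjusted p = 0.0304). Fgfr2 passed in all 31 alternatives, Fgfr1 in 8 of 31. Leaving out 1 library, Fgfr1 was lost without any 1 of Hoxa5tdTomato, creErt2 reference 2 or 3, Math1Hoxa5-IRES-GFP library 1 or 3, or tdT reference 1 or 3, with edgeR adjusted p up to 0.0773. Against the tdT references Fgfr2 rose (edgeR adjusted p = 0.00951) and Fgfr1 did not pass (edgeR adjusted p = 0.0830). In Hoxa5tdTomato against Math1Hoxa5-IRES-GFP, Fgfr2 was lower by −1.08 ± 0.274 (edgeR adjusted p = 0.0449). The Fgfr2 call was lost without any 1 of Hoxa5tdTomato, creErt2 reference 3, Math1Hoxa5-IRES-GFP library 1 or 3 or tdT reference 2 (edgeR adjusted p = 0.054 to 0.17), and when counts were scaled by library size alone (0.128) or by DESeq2 size factors in the edgeR fit (0.0511). In the fit with both kinds of reference apart, Dag1 (dystroglycan) and Robo1 (a Slit receptor) were also lower in Hoxa5tdTomato than in Math1Hoxa5-IRES-GFP. Of all genes tested, edgeR called 5.67% lower in that fit and 2.43% lower in the fit with the references pooled. Robo1 and Dag1 were also lower in the creErt2 than in the tdT references, Robo1 by −2.16 ± 0.290 (edgeR adjusted p = 0.0023) and Dag1 by −0.95 ± 0.175 (edgeR adjusted p = 0.0163). The Dag1 call was lost without creErt2 reference 1 or 2 or tdT reference 1 (edgeR adjusted p = 0.0991 to 0.105). Between these kinds of reference edgeR called 0.624% of all genes tested lower. Against the creErt2 references 0 of the 13 passed in Hoxa5tdTomato in edgeR, 2 had an unadjusted p under 0.05, and DESeq2 called 1, Robo1, which was higher. In that edgeR comparison 1312 of all 14732 genes tested had an unadjusted p under 0.05.

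Of 10 intracellular partners, among them Shank1 to Shank3, Gna12, Gna13, Gnao1 and Gnaq, 0 passed in Hoxa5tdTomato against all references in edgeR and 0 in DESeq2. At an unadjusted edgeR p under 0.05 there were 2 of them and 2148 of all 14732 genes tested. In Math1Hoxa5-IRES-GFP against all references edgeR called 1 of the 10 higher, and 1.3% of all genes tested. Gnao1, a G protein alpha subunit abundant in brain, rose in Math1Hoxa5-IRES-GFP, at 1494 ± 105 CPM there and 984 ± 201 CPM in Math1tdTomato (SD, n = 3 and 6), a log2 fold change of 0.60 ± 0.150 (edgeR adjusted p = 0.0492). Against the tdT references, at 1166 ± 26.3 CPM, its change of 0.36 ± 0.101 did not pass (edgeR adjusted p = 0.131), and the creErt2 references were lower than the tdT references by −0.54 ± 0.101 (edgeR adjusted p = 0.0169). The pooled call was lost without any 1 library of Hoxa5tdTomato, any 1 creErt2 reference or Math1Hoxa5-IRES-GFP library 1 or 2 (edgeR adjusted p = 0.0706 to 0.106), and the difference between references without any 1 creErt2 reference or tdT reference 1 or 3 (0.0715 to 0.0991); when counts were scaled by library size alone both were lost (0.0876 and 0.0614). Gnao1 was also lower in Hoxa5tdTomato than in Math1Hoxa5-IRES-GFP by −0.79 ± 0.178 (edgeR adjusted p = 0.0329), a call lost without any 1 library of Hoxa5tdTomato or Math1Hoxa5-IRES-GFP library 2 (0.0554 to 0.142) or when counts were scaled by library size alone (0.104), and Gnaq was so in the fit with both kinds of reference apart (edgeR adjusted p = 0.0199). With references pooled and apart, 1 and 2 of the 10 were called lower in this direct comparison, against 2.43% and 5.67% of all genes tested. Against references of one kind 0 of the 10 passed in edgeR in either group. At an unadjusted edgeR p under 0.05 there were 2 in Hoxa5tdTomato and 1 in Math1Hoxa5-IRES-GFP. Over all 14732 genes tested, 1312 and 2022 had such an unadjusted edgeR p. DESeq2 called 0 and 1 of the 10. In the test of the difference between the changes of the Hoxa5 groups, neither list held a gene that passed in edgeR or DESeq2. In that test edgeR called 0 of all 14732 genes and DESeq2 called 54. At an unadjusted edgeR p under 0.05 it counted 1 extracellular partner, 0 intracellular partners and 1181 of all genes tested. Eltd1, a latrophilin relative of endothelium, was at 15.03 ± 2.03 CPM in Hoxa5tdTomato and 1.98 ± 1.66 CPM in Math1tdTomato (SD, n = 3 and 6), and its change did not pass (edgeR adjusted p = 0.232). The endothelial markers above were higher in these same 3 libraries.

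The tested genes whose profile lay nearest to that of a member were found by the mean absolute difference in log2(CPM + 2), centred per gene, over the 12 libraries. For Tenm1 they were Rnf152 at 0.150, Cntnap2 at 0.167 and Reln at 0.187, where the median over all other genes was 0.758. Rnf152 had 1646 ± 83.7 CPM in Hoxa5tdTomato, 2294 ± 309 CPM in Math1Hoxa5-IRES-GFP and 866 ± 81.2 CPM in Math1tdTomato (SD, n = 3, 3 and 6). Reln, which encodes the secreted positioning protein reelin, had 739 ± 29.4 CPM in Hoxa5tdTomato, 874 ± 193 CPM in Math1Hoxa5-IRES-GFP and 340 ± 60.6 CPM in Math1tdTomato. For Tenm3 they were Hspa12a at 0.141, Nptxr at 0.201 and Klf6 at 0.205 (median 0.638). For Lphn3 they were Dpf3 at 0.137, Atp8a1 at 0.143 and Kalrn at 0.163 (median 0.519). Atp8a1 had 343 ± 63.0 CPM in Hoxa5tdTomato, 298 ± 45.1 CPM in Math1Hoxa5-IRES-GFP and 585 ± 45.5 CPM in Math1tdTomato. For Flrt2 they were Aatk at 0.124, Gap43 at 0.141 and Lamc1 at 0.146 (median 0.479), and for Lphn1 Micall1 at 0.0739, Snx27 at 0.0748 and Eea1 at 0.0786 (median 0.437). These genes are descriptions of likeness over libraries that share their groups.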

How the data were processed

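Raw read counts per gene were deposited by the authors as 1 table of 23079 genes in 12 libraries, with gene lengths, and were used as they stand. Base calling with bcl2fastq 1.8.4 and build mm10 are named per the submitters' processing notes. Aligner, counter, annotation and strand: not given in the sources used here. Genes were filtered with filterByExpr at a minimum count of 10, scaled by TMM and tested with edgeR 4.0.16 in R 4.3.3 (quasi-likelihood F test, 1 mean per labelled group, common dispersion 0.312, adjusted p under 0.05). The SE is the log2 fold change over the root of F. Values against references of one kind, between them, and of the difference of changes come from a fit of 4 column-name groups. Alternatives were DESeq2 1.42.0, other scalings, no filter, thinned depth, a replicate block and each library left out. On simulated counts for 14397 genes, 29% of genes changed by 1 log2 unit and 69% of those changed by 2 were recovered in Hoxa5tdTomato against Math1tdTomato. In Math1Hoxa5-IRES-GFP against Math1tdTomato 32% and 66% were recovered, and false calls numbered 3 and 4 in these comparisons. The simulation took the dispersions of the fit, with no difference between the kinds of reference and no library set apart. Its shares need not hold for the data. Promoters are from RefSeq (9 of 10 members matched, by gene identifier) and exon overlaps from GENCODE M21. All 10 members were described, and of the partners those past the threshold in any comparison, apart from results not reported here. Members, lists and rules were chosen with earlier results of these data known.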

Additional observations from a re-analysis of the deposited data

Results flagged for a closer look

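Tenm2 in tdT reference 2 was at 615 CPM, far above the other 5 Math1tdTomato libraries; its gap to the next library was a larger share of the range of the 6 than the 95% critical value of Dixon allows. The 10 members were each checked in this way among the 6 references, and chance flags about 1 in 20 groups.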

How the results depend on the processing

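Leaving out 1 library at a time, the number of members past the threshold was 1 to 4 in Hoxa5tdTomato against Math1tdTomato, 2 to 4 in Math1Hoxa5-IRES-GFP against Math1tdTomato, 0 to 2 in Hoxa5tdTomato against Math1Hoxa5-IRES-GFP, and 0 in every such fit for the 2 kinds of reference and for the difference of the changes. With both kinds of reference apart as well, an alternative chosen after seeing the data, the ranges were 0 to 5 and 1 to 3 in the first 2 comparisons. Over all genes those fits called 19 to 364 in Hoxa5tdTomato and 52 to 365 in Math1Hoxa5-IRES-GFP. The fit of 4 column-name groups gave 2 members in Hoxa5tdTomato, and so did the replicate block in that fit. Samples that share a number did not deviate together (r of −0.0529 to 0.0447), so the numbers are not taken as pairs, although each Hoxa5tdTomato library correlated best with the creErt2 reference of its own number, while no Math1Hoxa5-IRES-GFP library did so with the tdT references; with the block, 79, 89 and 967 genes were called in the first 3 comparisons. In Hoxa5tdTomato against Math1Hoxa5-IRES-GFP, library size as the only scaling gave 0 members and DESeq2 gave 2.

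Over all genes edgeR called 255 genes (124 higher, 131 lower) in Hoxa5tdTomato, 271 (191 and 80) in Math1Hoxa5-IRES-GFP, 493 (135 and 358) in the direct comparison and 197 between references. Leaving out 1 library gave 35 to 728 (lowest without Hoxa5tdTomato library 2, highest without Math1Hoxa5-IRES-GFP library 3), 190 to 575 (creErt2 reference 3 and Math1Hoxa5-IRES-GFP library 1), 0 to 1157 (Hoxa5tdTomato library 1 and Math1Hoxa5-IRES-GFP library 1) and 40 to 784 (creErt2 reference 2 and Math1Hoxa5-IRES-GFP library 3). DESeq2 called 622, 831, 1484 and 589, the fit of 4 groups 82, 127 and 1191 in the first 3, and library size alone 240 (170 and 70), 199 (105 and 94) and 148 (116 and 32), where it moved the median of all genes to 0.16, −0.13 and 0.30.

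Signs turned for members that did not pass. In Math1Hoxa5-IRES-GFP against Math1tdTomato, Lphn2 had −0.10 with library size alone and −0.057 to 0.11 with 1 library left out, below 0 without Math1Hoxa5-IRES-GFP library 2 (−0.057), tdT reference 1 (−0.014) or tdT reference 2 (−0.014). Tenm4 had −0.98 to 0.022, above 0 without Math1Hoxa5-IRES-GFP library 2. Flrt1 had −0.67 to 0.60, above 0 without creErt2 reference 1 (0.11), Math1Hoxa5-IRES-GFP library 3 (0.56) or tdT reference 2 (0.60); with references apart it had −1.02 to 0.86, above 0 without those last 2 libraries (0.22 and 0.86). In Hoxa5tdTomato, Flrt3 had −0.29 to 0.40, below 0 without library 3, and with references apart −0.29 to 0.39. Of the 841 alternative values of single members 732 kept direction and side of the threshold. Of the rest, 91 lost the call, 6 gained it and 12 changed sign, and the cause was not tested. Only results that passed in the reported fit could lose a call. In Hoxa5tdTomato against Math1tdTomato the call was lost in 24 of 31 alternatives for Lphn3, 21 for Flrt2, 13 for Tenm3 and 3 for Tenm1. In Math1Hoxa5-IRES-GFP against Math1tdTomato it was lost in 23 of 31 for Tenm3 and 1 for Lphn3, and Tenm1 kept it in all 31. Lphn1 in the direct comparison lost it in 6 of 19. Counts were lowest for Flrt1, at 0 to 422 per library, and Tenm4, at 115 to 443; between libraries their CPM varied with a CV of 89.6% and 65.3% in Math1Hoxa5-IRES-GFP.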
